A study of Mus musculus with 12 samples.

Results

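The keratins are the proteins of the intermediate filaments of epithelial cells. Their genes were followed here in 8 mouse mammary tumors labelled ShcA-null. Keratin genes were chosen by name: every gene probe of the array whose gene name in the files begins with Krt and a digit was taken, and keratin-associated proteins were left out. This gave 42 genes (50 probes) of the 27670 genes (41174 probes) on the array, and for each gene the brightest probe over both channels was used. ShcA, the product of Shc1, is an adaptor that passes signals from receptor tyrosine kinases to Ras. The tumors come from the NIC model, in which an activated Neu (ErbB2) receptor and Cre recombinase are made in mammary epithelium. The control was RNA pooled from NIC tumors, which share the Neu transgene and Cre, and it was hybridised together with each tumor's RNA on two-colour arrays. The tumor RNA carried Cy5 (red) on the first array of all 8 tumors, and Cy3 (green) on a further, dye-swapped array labelled with tumors 1 to 4, which made 12 arrays. A promoter active in mammary epithelium does not drive Cre in the fibroblasts, vessels and blood cells of a tumor. The labels do not state the age or strain of the mice, the part of Shc1 that was removed, or how many tumors went into the pool. In bulk tumor RNA, fewer cells of a type and less RNA per cell cannot be told apart.

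Keratins work in pairs, since each filament is built from a type I and a type II chain. In the mammary gland, luminal cells that face the duct make Krt8 with Krt18 and Krt19, and the basal, myoepithelial cells around them make Krt5 with Krt14. Other keratins belong to the upper layers of epidermis (Krt1, Krt10), to wounded or stressed epidermis (Krt6a, Krt6b, Krt16), or to the hair shaft and its sheath. In breast tumors, the balance of luminal and basal keratins is widely used to describe the kind of epithelium. Of 41 members found in RefSeq's list of genes (GRCm38.p6), 24 type I genes lie in a cluster on chromosome 11. The cluster on chromosome 15 holds 16 type II genes and also Krt18, the only type I gene there. Older names of 3 genes were updated: Krt2-1, Krt2-17 and Krt2-25 in the files are now Krt1, Krt2 and Krt87.

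Values are given throughout as the log2 ratio of tumor over pool, so 1 is 2-fold higher in the tumor and 0 is equal to the pool. The pool counts as 1 control sample. The tests ask whether the mean over tumors differs from 0, and leave out any spread between control tumors. The tumors are numbered in the labels, but separate animals are not mentioned, so the p-values reflect spread among these samples alone, which may be technical. Several arrays bear on every result. The swapped arrays did not all resemble the tumor they are labelled with: over 26797 probes, the swapped array labelled tumor 2 correlated at r = 0.808 with the first array of tumor 3 and at 0.13 with that of tumor 2. The array labelled tumor 3 correlated best with tumor 4 (0.376, against 0.118 for its label), and that labelled tumor 4 with tumor 8 (0.675, against 0.285). Only the array labelled tumor 1 was closest to its own tumor (0.447). The labels were kept for the main test, in which both arrays of a tumor were averaged. Beside it stands a fit with a term for the dye that joins each swapped array to the tumor it resembles most, hereafter the dye-adjusted fit. With the dye term, the consensus correlation within pairs was -0.0378 for labelled and 0.927 for best-matching pairs. The latter were chosen by correlation in these data. If the swapped array labelled tumor 2 holds RNA of tumor 3, the main test counts that RNA in both tumors. The SDs and p-values of the main test make no allowance for this. Shc1 itself was low on 2 arrays only, the first array of tumor 3 (-2.05) and the swapped array labelled tumor 2 (-2.22). It lay between -0.027 and 0.71 on the other first arrays and between 0.45 and 0.74 on the other swapped ones (mean 0.12 ± 0.65, SD, n = 8; limma adjusted p = 0.716). The labelled loss was thus not seen in Shc1 RNA in most tumors. If the probe lies outside the part removed, it checks nothing. Erbb2 stood at 0.13 ± 0.68 (SD, n = 8; limma adjusted p = 0.7). The swapped array labelled tumor 1 was flat for dim spots: of 15 tested keratins with a mean signal under 1000, 12 lay within 0.05 of 0 there, against at most 5 on any other array.

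The sequences shown first are those of the probes behind the results on Krt14, Krt19 and Krt13, as the files give them. The Krt14 and Krt19 probes carried high values of tumor 3, and of the 2 Krt13 probes 1 was bright and 1 was at background. Positions are those of mouse build mm7 in the files: chr11:100312408-100313013 for Krt14, chr11:100250117-100250176 for Krt19, and chr11:100230196-100230255 and chr11:100228435-100228673 for Krt13. The Krt14 interval and the latter Krt13 interval are longer than the 60 bases of a probe. No annotation of mm7 was used here, so exon and intron positions are not given. No pair of the 50 keratin probes shared a run of more than 13 bases on the strand given. That longest run was shared by the latter Krt13 probe and the Krt25 probe.
Krt14, A_51_P506417: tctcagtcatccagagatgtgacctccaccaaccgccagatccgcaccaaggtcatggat
Krt19, A_51_P356642: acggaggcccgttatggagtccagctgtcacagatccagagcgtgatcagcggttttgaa
Krt13, A_51_P307964: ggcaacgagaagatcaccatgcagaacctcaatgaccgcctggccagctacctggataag
Krt13, A_52_P430886: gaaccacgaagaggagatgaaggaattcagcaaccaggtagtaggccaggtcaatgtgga

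Upstream sequences are shown for the pair Krt5 and Krt14, which varied together, and for Krt71 and Krt84, the hair keratins that were called. Each is the 250 bases before a listed start of the gene in RefSeq (GRCm38.p6), read towards the gene. TATAAA is in capitals where it occurs on either strand. The Krt14 stretch lies inside the span of that gene in the same list (chr11:100203162-100207510). It is therefore not the sequence before the outer end of Krt14, which is not shown. A stretch of this length before a listed start was at hand for 28 of the 42 genes. TATAAA on either strand was found in 14 of the 28 (50%), against 13% of 27025 upstream stretches of the same length. It was found in 10 of 12 hair and root sheath keratins, in 1 of 5 simple epithelial ones (Krt20) and in neither the Krt5 stretch nor the Krt14 stretch. In Krt71 it begins 40 bases before the start, and in Krt84 its reverse complement begins 206 bases before. The 3 other motifs searched on both strands were TGANTCA (1 of 28 keratins, 6.9% of all), GCCNNNGGC (4 of 28, 13.6% of all) and GGGCGG (2 of 28, 32.9% of all), and none of them was found in these 4 stretches. A match describes the letters only, and keratins of a cluster are related sequences.
Krt5, chr15:101712906-101713155, minus strand: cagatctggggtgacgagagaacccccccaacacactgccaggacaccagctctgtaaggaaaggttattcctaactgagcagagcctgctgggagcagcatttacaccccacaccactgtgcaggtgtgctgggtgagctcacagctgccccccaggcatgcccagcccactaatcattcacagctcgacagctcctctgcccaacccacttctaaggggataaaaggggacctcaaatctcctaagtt
Krt14, chr11:100206031-100206280, minus strand: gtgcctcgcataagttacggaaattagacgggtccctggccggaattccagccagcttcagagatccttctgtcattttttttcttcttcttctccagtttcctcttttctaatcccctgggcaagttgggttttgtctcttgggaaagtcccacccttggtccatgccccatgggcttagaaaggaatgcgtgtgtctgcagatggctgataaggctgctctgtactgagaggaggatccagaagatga
Krt71, chr15:101743098-101743347, minus strand: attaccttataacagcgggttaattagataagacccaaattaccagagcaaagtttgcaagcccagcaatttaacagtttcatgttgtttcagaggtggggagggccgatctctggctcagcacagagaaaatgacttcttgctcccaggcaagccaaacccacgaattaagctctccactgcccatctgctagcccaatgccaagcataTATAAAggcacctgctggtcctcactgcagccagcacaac
Krt84, chr15:101532821-101533070, minus strand: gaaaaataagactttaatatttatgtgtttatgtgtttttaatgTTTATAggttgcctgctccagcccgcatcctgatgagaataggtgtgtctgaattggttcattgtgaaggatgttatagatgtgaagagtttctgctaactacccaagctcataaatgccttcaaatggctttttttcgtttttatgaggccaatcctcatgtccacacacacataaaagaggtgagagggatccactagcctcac

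The keratins leaned above the pool, but most of the differences were not called. A gene entered the test when, in 4 or more tumors, an array showed its spot well above background for either RNA, and 27 of the 42 keratins did. Of these 27, 6 were called higher and 1 lower (25.9% called), at a limma adjusted p under 0.05 over all genes. The background was 17.2% of 20307 genes called, and 6.68% called higher, against 22.2% of the tested keratins. The 6 higher keratins include Krt8 and Krt84, whose sign turned with the dye. On the swapped arrays alone no keratin was called higher by limma, and Krt8 and Krt18 were called lower (6 of 26 at an unadjusted p under 0.05). The median of the 27 means was 0.29, against -0.018 for all genes. In the dye-adjusted fit, 1 of 27 keratins was called (3.7%), against 8.08% of 20235 genes. That fit differs from the main one in both the dye term and the pairing. With the dye term and the pairs as labelled, 6 of 27 keratins were called and 4489 genes: Krt71 (1.54), Krt5 (1.24), Krt8 (0.36) and Krt80 (0.66) higher, and Krt23 (-1.26) and Krt10 (-0.69) lower. The higher keratins were Krt71, Krt5, Krt84, Krt8, Krt14 and Krt7, and the lower one was Krt23. Of 13 tested type II genes, 5 were called, all higher (median 0.36), and of 14 type I genes, Krt14 was higher and Krt23 lower (median 0.18). Of the 3497 genes called in all, 38.8% were higher, but 71.3% of 3357 were higher with median centring in place of loess, which moved the median of all genes to 0.16. Under that scaling 7 keratins were called, all higher, and Krt23 no longer passed (-0.50, limma adjusted p = 0.267).

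Within the first slide (tumors 1 to 4) and the other slide of first arrays (tumors 5 to 8), the means kept their sign: Krt71 at 1.41 and 1.97, Krt5 at 1.65 and 1.24, Krt84 at 1.40 and 1.33, Krt8 at 1.56 and 1.24, Krt14 at 1.25 and 0.73, Krt7 at 0.70 and 0.96 and Krt23 at -1.11 and -0.72. With 4 tumors on a slide, Krt84 and Krt8 passed in the former (limma adjusted p = 0.0293 and 0.0264) and none in the latter, where 9 of 26 had an unadjusted p under 0.05. Both slides carried the tumor RNA in Cy5, so a dye effect would give the same sign on each. A shared sign is therefore no replication for Krt8 and Krt84, which turned sign on the swapped arrays.

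**Figure D1:**
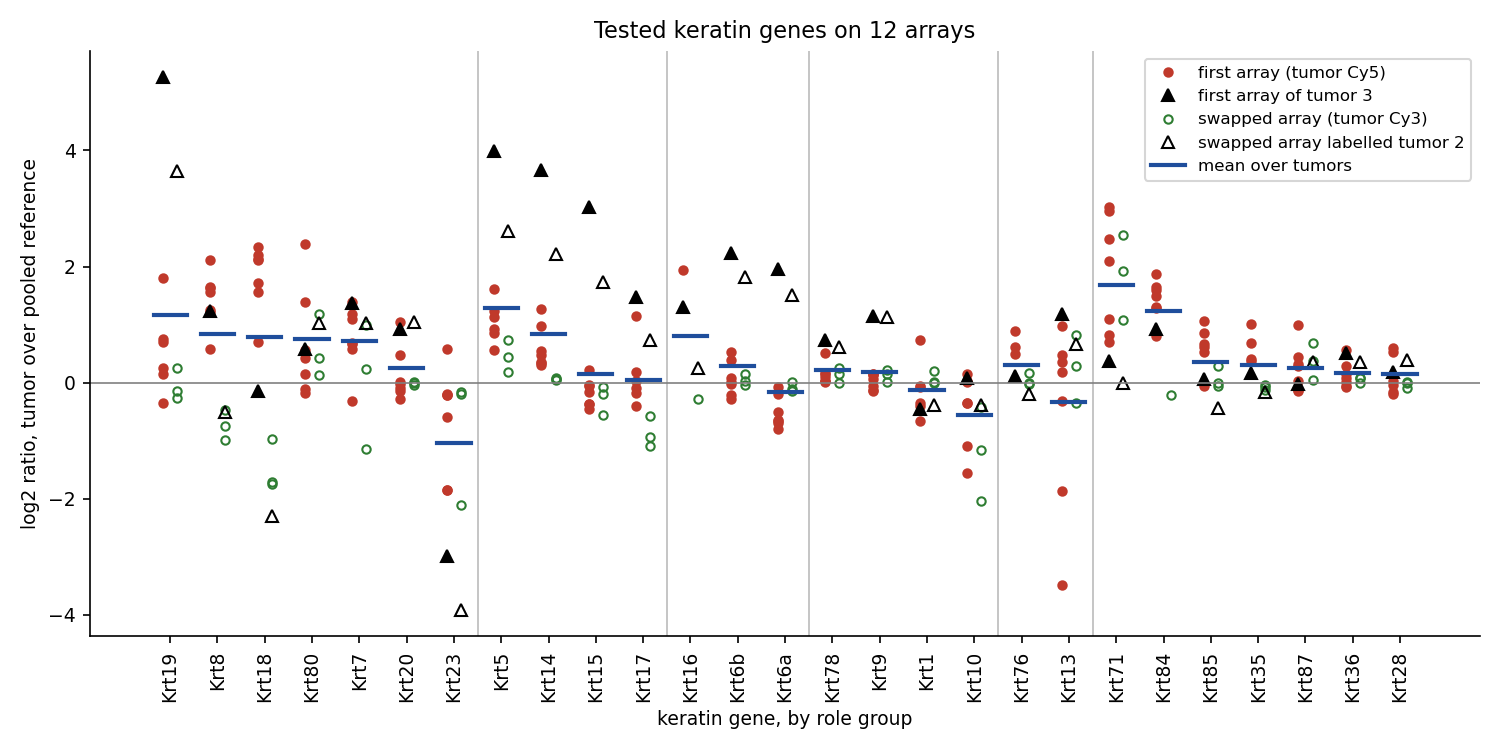
Log2 ratio of tumor over pool (vertical axis) of the 27 tested keratins (horizontal axis, by role group), with a point for each array and a blue bar for the mean over tumors; red points are the first arrays, open green points the swapped arrays, and triangles the first array of tumor 3 and the swapped array labelled tumor 2. The triangles stand highest for Krt19, Krt5, Krt14 and Krt15 and lowest for Krt23, while for Krt8 and Krt18 the swapped arrays all lie below 0.

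The group named simple epithelial here holds the luminal keratins Krt8, Krt18 and Krt19, but is not limited to keratins of luminal cells. Its median was 0.76 over 7 members, all tested, against 0.49 for the basal keratins. That median is the mean of Krt80, and Krt20 was well above background in tumor RNA on 3 arrays only. Krt8 and Krt7 were called higher, Krt23 lower and 4 were not called. The order of these groups was the other way in the dye-adjusted fit (0.31 against 0.39) and on the swapped arrays (0.25 against 0.42). Krt8 and Krt18, the main luminal pair, gave opposite directions in the 2 dye orientations. On the first arrays of tumors 1 to 8, Krt8 stood at 1.25, 1.64, 1.24, 2.11, 1.21, 0.58, 1.56 and 1.63, above the pool in all of them. Its swapped arrays, labelled 1 to 4, stood at -0.99, -0.51, -0.74 and -0.48, below the pool in all of them. The red channel was thus the brighter one in both orientations. The mean over tumors was 0.84 ± 0.57 (1.79-fold, SD, n = 8; limma adjusted p = 0.0159), and 0.85 without both low-Shc1 arrays (adjusted p = 0.059). It was 1.40 on the first arrays alone (adjusted p = 0.000637), -0.68 on the swapped arrays alone (adjusted p = 0.0479) and 0.29 in the dye-adjusted fit (adjusted p = 0.472). The other Krt8 probe (A_51_P242400) did the same, with 1.15 on the first and -0.51 on the swapped arrays (mean 0.67, limma adjusted p = 0.0209 in a fit of all probes).

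Krt18, the partner of Krt8, stood at 1.71, 2.13, -0.15, 2.20, 2.12, 0.70, 1.57 and 2.34 on the first arrays of tumors 1 to 8. Tumor 3 was the only one below the pool. On the swapped arrays it stood at -1.71, -2.29, -1.74 and -0.98. The mean over tumors (0.79 ± 1.15, SD, n = 8; limma adjusted p = 0.153) therefore sets values of opposite sign against each other. In the dye-adjusted fit it was -0.026 (adjusted p = 0.976). For Krt8 the dye term with labelled pairs gave 0.36 (limma adjusted p = 0.0471). The direction of both genes thus depends on the orientation, and the call of Krt8 on the pairing. The dye effect, the difference between the 2 orientations in the dye-adjusted fit, was 3.21 for Krt18 and 2.23 for Krt8. Its median size was 0.36 over 20231 genes, of which 8.85% exceeded 1 and 63.2% had a called dye effect. Keratins that kept their sign had one too: 0.63 for Krt5, 0.60 for Krt14, 0.58 for Krt71 and 0.50 for Krt7. All 4 were called by limma (adjusted p = 0.00156 to 0.0204), while that of Krt23 was not (0.31, adjusted p = 0.225). Krt8 and Krt18 gave bright spots, of rank 42 (Krt8) and 127 (Krt18) by mean signal. Among the 100 brightest genes the median dye effect was 2.83 and every one exceeded 1. Neither spot was saturated on any array, and the part of brightness in these values was not tested.

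**Figure D2:**
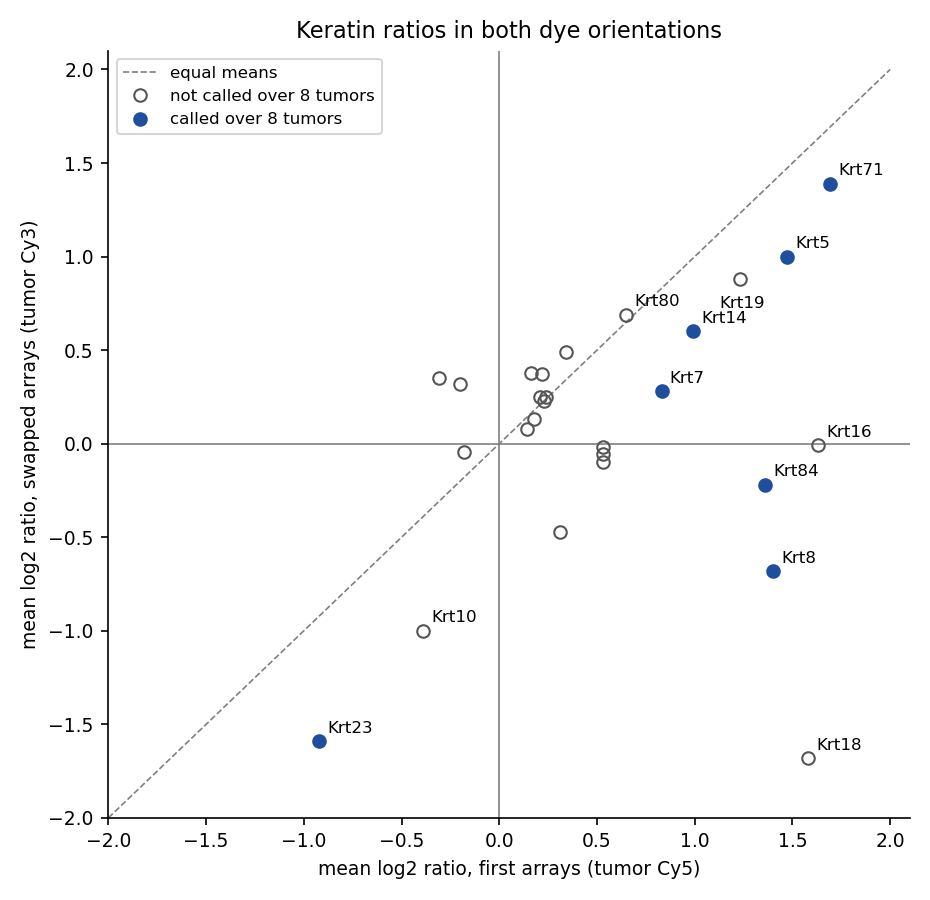
Mean log2 ratio of each tested keratin over the first arrays (horizontal axis, tumor in Cy5) and over the swapped arrays (vertical axis, tumor in Cy3), with filled points for keratins called over 8 tumors; equal values fall on the dashed line. Krt71, Krt5, Krt14 and Krt23 keep their sign, while Krt18 (1.58 and -1.68), Krt8 (1.40 and -0.68) and Krt84 (1.36 and -0.22) change theirs. In all, 8 keratins, Krt18, Krt8 and Krt84 among them, had a mean above 0 on the first arrays and below 0 on the swapped ones.

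Krt19, a small luminal keratin without a tail, had the highest value of any keratin on an array, 5.26 in tumor 3. In the other first arrays it stood at -0.35 (tumor 1), 0.70, 0.76, 0.25, 1.81 and 0.14 (tumors 4 to 8), with the spot of tumor 2 left out as an outlier. The swapped array labelled tumor 2 gave 3.65, and the 3 others gave -0.26, 0.26 and -0.14. Tumor 2 therefore enters the mean through 3.65 alone. The mean over tumors was 1.17 ± 1.42 (SD, n = 8; limma adjusted p = 0.0945), and 0.46 (adjusted p = 0.214) without both arrays that have low Shc1. Krt7, a keratin of ductal epithelium, was called higher at 0.72 ± 0.64 (1.65-fold, SD, n = 8; limma adjusted p = 0.041). It lay at -0.31, 1.09, 1.37, 0.66, 0.68, 0.58, 1.18 and 1.39 on the first arrays, so tumor 1 alone was below the pool. That holds for the swapped array labelled tumor 1 as well (-1.15, against 1.02, 0.24 and 1.00 for the others). The call did not hold in the dye-adjusted fit (0.58, adjusted p = 0.104), without both low-Shc1 arrays (0.66, adjusted p = 0.0688), when any one of tumors 2, 3, 4, 5, 7 and 8 was left out (adjusted p = 0.0746 to 0.0964), or on its other probe, A_52_P410685 (0.41, adjusted p = 0.515), which stood at -2.22 in tumor 6.

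Krt23, a type I keratin of glandular epithelium, was the only keratin called lower (-1.04 ± 0.81, 2.05-fold lower, SD, n = 8; limma adjusted p = 0.0235). On the first arrays of tumors 1 to 8 it stood at -1.85, 0.58, -2.99, -0.19, -0.59, -1.85, -0.21 and -0.22. The tumors therefore split into 3 far below the pool (1, 3 and 6), 4 a little below and tumor 2 above. The swapped arrays labelled tumors 1 to 4 gave -2.11, -3.91, -0.19 and -0.16. Without both low-Shc1 arrays the mean was -0.58 (adjusted p = 0.192), and in the dye-adjusted fit it was -1.07 (adjusted p = 0.114). It also lost its call without tumor 2 (limma adjusted p = 0.0559) and without tumor 3 (0.0583). Of the remaining 2 members, Krt80 reached 2.38 in tumor 6 (mean 0.76 ± 0.79, SD, n = 8; limma adjusted p = 0.0638); it is named after its values were seen.

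Among the 4 basal and myoepithelial keratins, Krt5 and Krt14 were higher than the pool and Krt15 and Krt17 were not called (group median 0.49). Krt5, the type II chain of basal cells, stood at 0.57, 0.92, 3.99, 1.13 and 1.24 on the first arrays of tumors 1 to 5 and at 1.62 and 0.86 in tumors 7 and 8, with tumor 6 left out as an outlier. The swapped arrays labelled tumors 1 to 4 gave 0.19, 2.62, 0.74 and 0.45. Krt5 was thus above the pool on every array that measured it, in both orientations. The mean was 1.29 ± 0.68 (2.44-fold, SD, n = 7; limma adjusted p = 0.0083; exact sign-flip p = 0.0156). Krt14, its type I partner, stood at 0.31, 0.47, 3.67, 0.54, 0.34, 0.97, 1.27 and 0.35 on the first arrays and at 0.071, 2.21, 0.081 and 0.040 on the swapped ones. It too was above the pool on all 12 arrays (mean 0.83 ± 0.63, 1.77-fold, SD, n = 8; limma adjusted p = 0.0232; exact sign-flip p = 0.00781, the smallest that 8 tumors allow). On 3 swapped arrays the excess of Krt14 was at most 0.081.

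Both were smaller without the 2 arrays that have low Shc1: Krt5 was 0.93 (adjusted p = 0.00619) and Krt14 0.49 (adjusted p = 0.0478). The call of Krt14 was lost without tumor 2 (limma adjusted p = 0.0553), without tumor 7 (0.0555) and on the first arrays alone (0.0734), while that of Krt5 was kept whichever tumor was left out. Tumors were left out by label, so each such run kept the first array of tumor 3 or the swapped array labelled tumor 2. Keeping the call there does not show that it is independent of those arrays. In the dye-adjusted fit neither was called (1.16, adjusted p = 0.0723, and 0.69, adjusted p = 0.251). With the dye term and labelled pairs Krt5 was still called (1.24, limma adjusted p = 0.0165) and Krt14 was not (0.80, adjusted p = 0.0789). Krt15, which marks basal stem cells of hair follicle and epidermis, stood at 3.03 in tumor 3 and at 1.74 on the swapped array labelled tumor 2, but between -0.45 and 0.22 on the other first arrays. Its mean of 0.15 ± 0.59 (SD, n = 8; not called by limma, exact sign-flip p = 0.539) became -0.19 without those 2 arrays. Krt17, a keratin of basal cells and of wounded skin, reached 1.48 in tumor 3 and 1.15 in tumor 6 and lay between -0.40 and 0.19 in the other tumors measured (mean 0.041 ± 0.59, SD, n = 8; limma adjusted p = 0.898). Its swapped arrays gave -0.58, 0.73, -0.94 and -1.09.

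**Figure D3:**
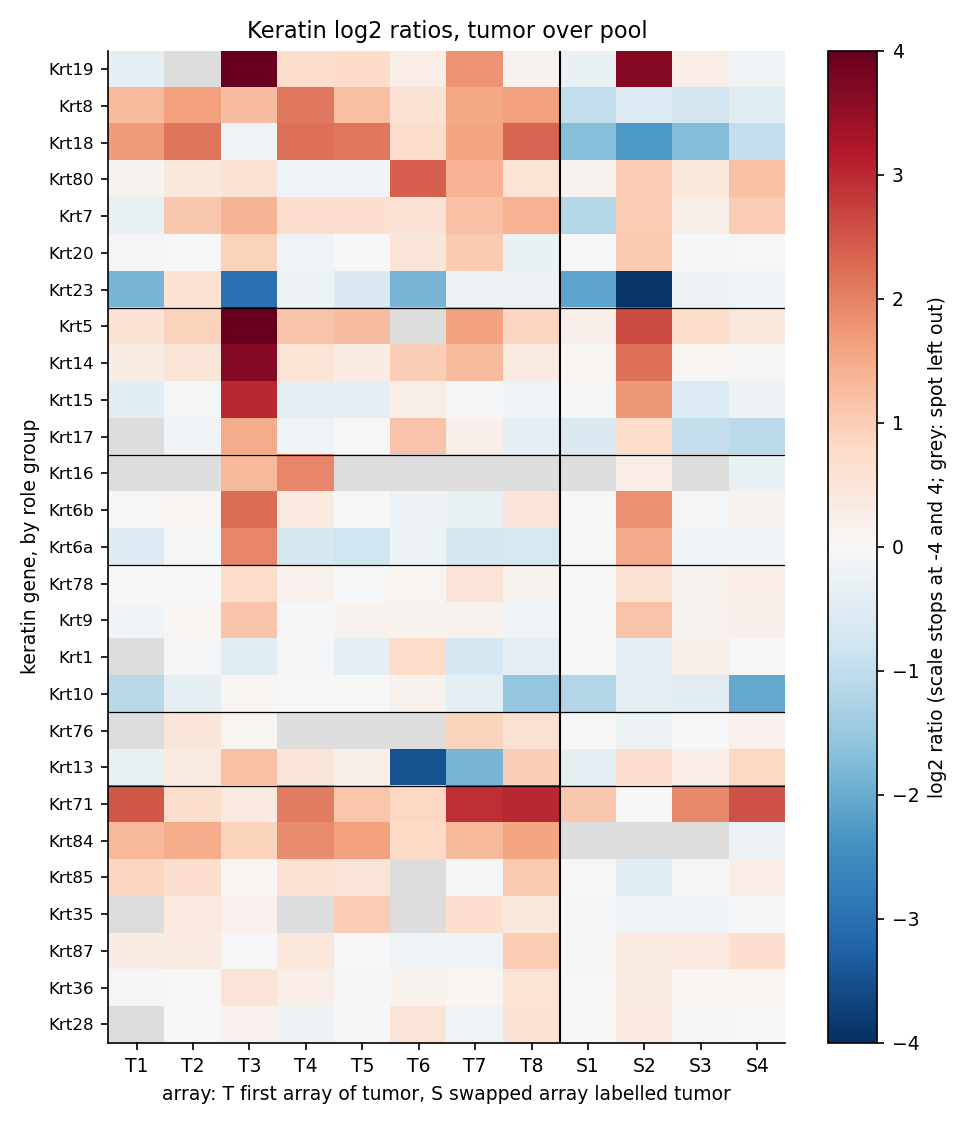
Colour map of the log2 ratio of tumor over pool for the 27 tested keratins (rows, by role group) by array (columns; T1 to T8 are first arrays by tumor, S1 to S4 swapped arrays by label); red is above and blue below the pool, and grey marks spots left out as outliers. Columns T3 and S2 share the red of Krt19, Krt5, Krt14, Krt15, Krt6b and Krt6a and the blue of Krt23.

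Tumor 3 had the highest value of 10 of the 27 tested keratins on the first arrays and the lowest of 6. It held 13 values of at least 1 in size, against 4 to 11 in the other tumors, and the median of its keratins was 0.92, against 0.017 to 0.54. These counts have unequal bases, since 0 of its 27 spots were left out as outliers, against 1 to 6 in the other tumors. With outliers kept, Krt16 stood at 1.92 and Krt1 at 0.49 in tumor 1. Over all tested genes the SD of the ratios was 0.99 for tumor 3, 1.24 for tumor 6 and 1.02 for tumor 7. Markers of other cells moved with tumor 3. Myoepithelial markers (9 of 9 tested) had a median of 2.16 in tumor 3, against -0.58 to 0.48 in the other first arrays, and 1.49 on the swapped array labelled tumor 2. Fibroblast markers (8 of 8 tested) stood at 3.76 there, against -1.40 to 0.72, and skeletal muscle markers (5 of 6 tested) at 4.28, against -0.42 to 2.75. Macrophage markers (10 of 10 tested) stood at 1.79, against -0.35 to 0.36, and endothelial markers (6 of 6) at 1.20, against -0.70 to 0.27. Epidermal markers (10 of 16 tested) stood at 1.06, against -0.14 to 0.30, and hair follicle markers (5 of 7) also at 1.06, against -1.83 to -0.026. The swapped array labelled tumor 2 gave 1.02 and 1.00 for these. The summed signal of the epidermal markers, 6 of them well above background in tumor RNA on every array, was 8466 to 47163 in tumor RNA and 10808 to 20881 in the pool, and that of the hair follicle markers, 1 of them so, 376 to 3619 and 1268 to 2176. The summed signal of the 9 myoepithelial markers ranged from 35048 to 144559 in tumor RNA and from 54881 to 153044 in the pool over the 12 arrays, and 8 of them were well above background in tumor RNA on every array. For the 8 fibroblast markers, all well above background in tumor RNA on every array, the sums were 119111 to 1303534 and 80748 to 439372. For the 5 muscle markers, 2 of them well above background there, the sums were 1418 to 132872 and 1866 to 13739. The pool is 1 RNA, yet its signal differed between arrays. For Krt14 the log2 signal of the pool was 11.48 on the first array of tumor 3 and 13.08 on the swapped array labelled tumor 2. On the other arrays it was 8.27 to 9.13. The pool thus read higher for Krt14 where the tumor RNA was high, so the 2 signals of an array are not independent measures. The cause was not tested. Luminal markers stood at 0.32 in tumor 3, within the -0.79 to 0.48 of the others. The offset of 50 in the background correction keeps every signal above 0, so these sums do not show that a cell type was present. The part of these cells in the keratin values of tumor 3 was not tested.

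The stress keratins of wounded epidermis were not called (0 of 3 tested by limma, 1 at an unadjusted p under 0.05; median 0.29). Krt6a and Krt6b, type II chains that rise after wounding, stood at 1.95 and 2.23 in tumor 3 and at 1.51 and 1.82 on the swapped array labelled tumor 2. In the other tumors Krt6a lay between -0.80 and -0.07 and Krt6b between -0.29 and 0.52. Their means were -0.17 ± 0.64 and 0.29 ± 0.52 (SD, n = 8; limma adjusted p = 0.602 and 0.272). Krt6a was well above background in the tumor RNA on 3 arrays and in the pool on 10. Without both low-Shc1 arrays Krt6a was -0.39 and passed (limma adjusted p = 0.0415). Both genes are close relatives, and whether a probe also binds RNA of the other was not tested. Krt16, the type I partner of Krt6a, kept 4 of its 12 spots after outliers were left out, at 1.31 and 1.94 on the first arrays of tumors 3 and 4 and at 0.26 and -0.28 on the swapped arrays labelled tumors 2 and 4 (mean 0.80 ± 0.53, SD, n = 3; limma adjusted p = 0.116). With the outliers kept it was called (1.00, limma adjusted p = 0.00792), at 1.31 to 1.94 on all 8 first arrays but at -0.89, 0.26, -1.42 and -0.28 on the swapped ones.

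Keratins of the upper epidermis were not called either (0 of 4 tested by limma, 2 at an unadjusted p under 0.05; median 0.03), although Krt10 passed in a pair of alternatives. Krt10, the type I chain of differentiating keratinocytes, was lowest in tumors 8 (-1.55) and 1 (-1.10) and between -0.35 and 0.15 in the other 6. The swapped arrays gave -1.16, -0.39, -0.42 and -2.04, all below the pool. Its mean was -0.55 ± 0.61 (SD, n = 8; limma adjusted p = 0.0843), but its other probe, A_52_P76277, gave 0.15 (adjusted p = 0.669). That probe was dim, well above background on 5 arrays in tumor RNA and 7 in the pool, and its highest values were those of tumor 3 (1.72) and the swapped array labelled tumor 2 (1.49). Krt10 was called lower with the dye term and labelled pairs (-0.69, limma adjusted p = 0.0205) and without tumor 6 (-0.65, adjusted p = 0.0451). Krt1, the type II partner, lay between -0.66 and -0.066 in 6 tumors and at 0.73 in tumor 6 (mean -0.13 ± 0.41, SD, n = 8; limma adjusted p = 0.546). Its other probe gave 0.26 (adjusted p = 0.142). Of the other stratified keratins, 2 of 4 were tested and neither was called by limma (0 at an unadjusted p under 0.05). Krt13, a keratin of mucosal lining, had the largest SD over tumors once the arrays of a tumor were averaged (1.57, against 1.42 for Krt19), although Krt19 spread more on the first arrays alone (1.90 against 1.59). It stood at -3.49 in tumor 6, -1.87 in tumor 7, and -0.31 to 1.18 in the remaining 6 (mean -0.33 ± 1.57, SD, n = 8; limma adjusted p = 0.656). The other Krt13 probe was well above background on no array, in either RNA, so it gave no measure of this pattern.

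The hair and root sheath keratins had 16 members on the array, of which 7 were tested, 2 were called higher and 5 were not called (median 0.30). Krt71, a type II keratin of the inner root sheath of hair, was the keratin with the highest mean. On the first arrays of tumors 1 to 8 it stood at 2.48, 0.70, 0.38, 2.09, 1.10, 0.82, 2.95 and 3.02, and on the swapped arrays at 1.08, -0.0058, 1.93 and 2.55. It was above the pool on 11 of 12 arrays, and lowest on the 2 arrays with low Shc1, where Krt5, Krt14 and Krt19 were highest. The mean was 1.69 ± 1.00 (3.22-fold, SD, n = 8; limma adjusted p = 0.00774; exact sign-flip p = 0.00781). It was the only keratin called in the dye-adjusted fit (1.40, adjusted p = 0.0369). The spot was well above background in both RNAs on all 12 arrays.

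Krt84, a type II keratin of hard structures such as nail and tongue papillae, stood at 1.29, 1.49, 0.93, 1.88, 1.64, 0.80, 1.31 and 1.59 on the first arrays, the most even of the called keratins (mean over tumors 1.23 ± 0.34, 2.35-fold, SD, n = 8; limma adjusted p = 0.000815). Its direction turned with the dye orientation. On 3 of the 4 swapped arrays the spot was left out as an outlier, and the 1 kept gave -0.22. With those spots kept, the swapped arrays gave -1.42, -0.58, -1.50 and -0.22, and the mean over tumors was 0.78 (adjusted p = 0.04). In the dye-adjusted fit it was 0.47 (adjusted p = 0.0941), and its dye effect was 1.79. The ratio of Krt84 was even, but the signal of its spot was not. In the pool, which is 1 RNA, its log2 signal ran from 11.43 (swapped array labelled tumor 4) to 15.68 (first array of tumor 6). On the same 2 arrays the tumor RNA gave 11.21 and 16.48. The cause of this spread was not tested. Of the 7 hair follicle markers 5 were tested and none was called higher: Tchh (-1.30 ± 1.05) and Msx2 (-1.26 ± 0.41; SD, n = 8) were called lower by limma (adjusted p = 0.0248 and 0.00119) and 3 were not called. Tchh, the gene of a root sheath protein, reached 1.78 in tumor 3 and 2.31 on the swapped array labelled tumor 2, against -2.62 to -1.18 on the other first arrays.

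The remaining 15 keratins were not tested, and 7 of them were well above background on no array, in either RNA. They include 9 of the hair keratins, Krt2 of the epidermis, Krt4 and Krt12 of mucosa and cornea, Krt75, Krt42 and Krt222. No ratio is given for these 15. A further 11 of the 27 tested keratins were not well above background in both RNAs on every array, so their ratios rest in part on dim spots; this holds for the values near 0 of Krt15, Krt6a, Krt6b and Krt9 among others.

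Partner keratins were compared across tumors on the first arrays only. Of 6 pairs, 5 could be tested. Krt5 and Krt14 varied together (Pearson r = 0.99, exact permutation p = 0.00476, adjusted over the 5 pairs 0.0238; Spearman rho = 0.79, exact permutation p = 0.048, adjusted 0.144; n = 7). Without tumors 3 and 1, the farthest from the median of Krt5, r was 0.85 (n = 5). Krt8 and Krt18 gave r = 0.59 (exact permutation p = 0.14, adjusted 0.29) and rho = 0.71 (exact permutation p = 0.0576, adjusted 0.144; n = 8), and r = 0.47 without tumors 6 and 4. The other pairs were Krt7 with Krt19 (r = 0.58, exact permutation p = 0.174, adjusted 0.29; rho = 0.46, p = 0.302, adjusted 0.503; n = 7; r = 0.90 without tumors 1 and 8), Krt8 with Krt19 (r = -0.007, exact permutation p = 0.984, adjusted 0.984; rho = -0.14, p = 0.783, adjusted 0.84; n = 7; r = -0.25 without tumors 4 and 6) and Krt1 with Krt10 (r = 0.30, exact permutation p = 0.416, adjusted 0.52; rho = 0.11, p = 0.84; n = 7; r = 0.061 without tumors 6 and 7). All first-array ratios share the same pool and orientation, and each slide holds 4 tumors, too few for a value within a slide.

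**Figure D4:**
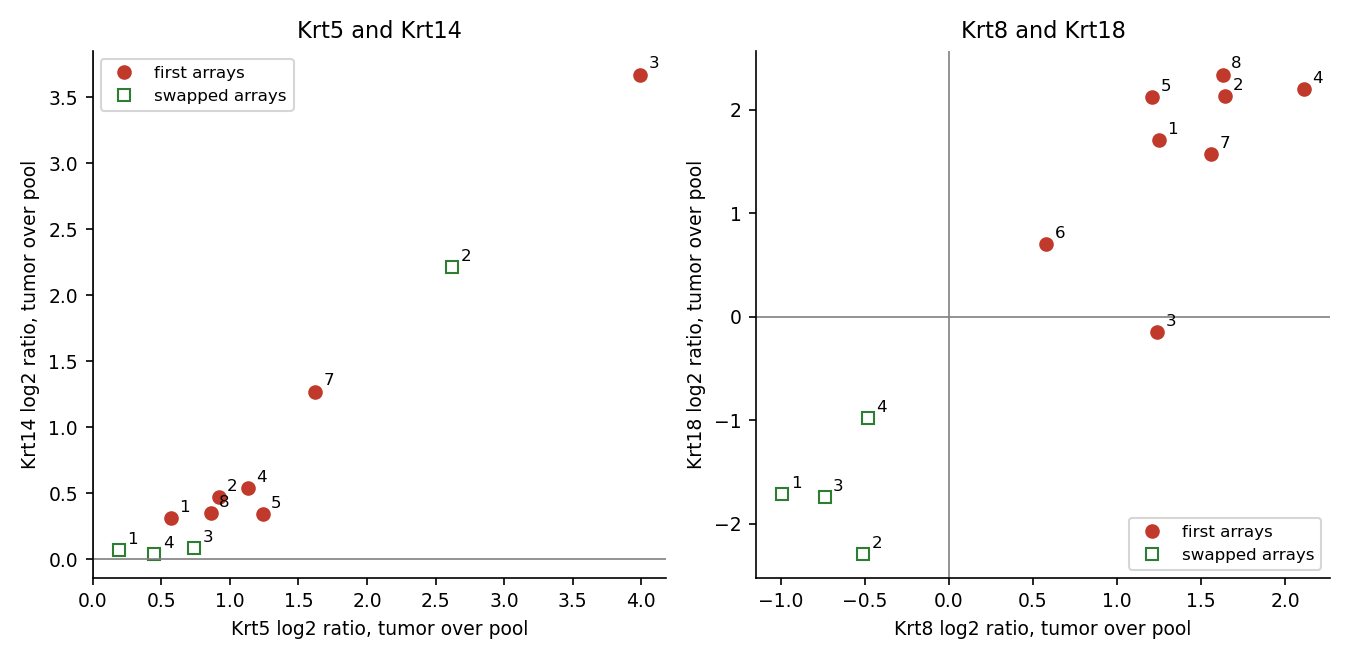
Log2 ratio of tumor over pool of Krt14 against Krt5 (left) and of Krt18 against Krt8 (right), with a point for each array numbered by its tumor label, red for the first arrays and open squares for the swapped ones. Krt5 and Krt14 lie along a line led by tumor 3 (3.99 and 3.67), whereas the first and swapped arrays of Krt8 and Krt18 form separate clouds, with Krt8 above 0 on every first array and Krt18 above 0 on all but that of tumor 3 (-0.15).

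Genes that hold or control keratin filaments were read from lists chosen for their known roles. Beside the counts below, 17.2% of all 20307 genes tested were called and 6.68% were called higher. In the dye-adjusted fit 8.08% of all genes were called. Of 12 tested desmosome genes, which anchor keratins at cell contacts, 4 were lower and 8 not called (median -0.12): the desmosomal cadherins Dsg1b (-0.90 ± 0.43), Dsc2 (-0.85 ± 0.81) and Dsg2 (-0.45 ± 0.31) and the plaque protein gene Pkp2 (-0.59 ± 0.26; SD, n = 8; limma adjusted p = 0.00519, 0.0495, 0.0305 and 0.00692). None of the 4 was called in the dye-adjusted fit, by limma (adjusted p = 0.136 to 0.643). None of 11 plakin and hemidesmosome genes was called by limma (2 at an unadjusted p under 0.05; median -0.027). Of 15 tested transcription factors of epithelial genes, Tfap2b (-3.43 ± 0.63), Gata3 (-0.73 ± 0.41) and Grhl1 (-0.71 ± 0.36) were lower, Tfap2a higher (0.58 ± 0.40; SD, n = 8; limma adjusted p = 7.07e-05, 0.0096, 0.00784 and 0.0232) and 11 not called. Of these 4, Tfap2b alone was called in the dye-adjusted fit (-3.07, adjusted p = 0.00497). Of 14 tested other intermediate filament genes, 3 were higher and 11 not called: Vim, the filament of mesenchymal cells (1.53 ± 0.95), and the nuclear lamins Lmnb2 (0.66 ± 0.56) and Lmnb1 (0.36 ± 0.24; SD, n = 8; limma adjusted p = 0.00938, 0.0372 and 0.0417). In the dye-adjusted fit, Vim (1.34, adjusted p = 0.0317) and Lmnb2 (0.96, adjusted p = 0.00605) were still called.

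Epithelial markers other than keratins were mixed. The shares over all genes, 17.2% called and 6.68% called higher, apply to these counts as well. Of 15 tested luminal markers, Cd24a (1.22 ± 0.44) and Epcam (0.73 ± 0.69) were higher, the estrogen receptor gene Esr1 (-0.99 ± 0.84; SD, n = 8) and Gata3 lower, and 11 were not called (median -0.091). Of 9 myoepithelial markers, the cadherin gene Cdh3 (1.11 ± 0.76, n = 7) and the oxytocin receptor gene Oxtr (0.89 ± 0.62, SD, n = 8) were higher and 7 not called (median 0.24). Both were highest in tumor 3 (2.83 and 2.64). Of 10 tested epidermal markers, Calml3 was lower (-0.73 ± 0.58, SD, n = 7) and 9 were not called (median 0.26). Among markers of other cells, 2 of 12 lymphocyte genes were higher (Lck at 1.51 ± 0.92 and Cd52 at 0.87 ± 0.61, SD, n = 8), Cd3e was lower (-1 ± 0.45, SD, n = 4, but -0.11 in the dye-adjusted fit) and 9 were not called, with a median of 3.14 in tumor 7 and 0.11 to 1.24 in the others. Of 10 macrophage genes 1 was higher (C1qc, 0.50 ± 0.36, SD, n = 8), and of 5 muscle genes 1 (Mylpf, 0.99 ± 0.89, SD, n = 8). None of 8 fibroblast, 6 endothelial and 6 adipocyte genes was called by limma (0, 1 and 0 at an unadjusted p under 0.05). Of all the marker and list genes called here, 6 were also called in the dye-adjusted fit: Cd24a, Lck, Cd52, Tfap2b, Vim and Lmnb2.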

How the data were processed

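RNA of 8 tumors and 1 pool was measured on 12 two-colour Agilent arrays (3 slides; the swapped arrays fill a slide of their own, so their slide and dye cannot be told apart). Per the file headers, Feature Extraction 9.5.3.1 gave each spot's foreground and background intensity, deposited without normalization, a log10 ratio of red over green from processed signals, and other values of 0 or 1 as flags. The authors' deposited table of log2 values already runs as tumor over pool: against the ratios used here its slope was 0.976 to 1.24 and r 0.862 to 0.995. The medians of its columns were -0.0013, -0.00042, -0.081, -0.014, -0.026, 0.13, 0.1 and -0.0016 (first arrays in the order of the tumors), and -0.011, -0.056, -0.007 and -0.0023 (swapped). How it was centred is unknown, and it served as an alternative.

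Background was corrected by normexp (offset 50) and each array normalized by loess (weight of control spots 0) (limma 3.58.1, R 4.3.3). Outlier-flagged spots (0.47% to 13.7% of an array) were left out, saturated spots (at most 3 on an array) kept, ratios turned to tumor over pool and arrays of a tumor averaged by label. Means were tested against 0 with lmFit and eBayes, with Benjamini-Hochberg adjustment over 20307 genes. In a check on simulated data the test recovered planted changes. The simulation drew independent values for each tumor, without dye effects, swapped arrays or arrays that resemble another tumor. It therefore does not check how the test handles those. The number of arrays limits the precision. Probes were named through accessions (22951), symbols (6659) or older symbols (3109) in RefSeq's GRCm38.p6 list, or kept the file's name (8455). Members, gene lists and the rule for named genes (14 well-known keratins, every called keratin, the 5 highest and 5 lowest means and the 5 largest SDs) were chosen with earlier results of these data known. Alternatives covered normalization, filters, dye, slides, probes and tumors left out.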

Additional observations from a re-analysis of the deposited data

Results flagged for a closer look

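Dixon's test at the 95% level marks a far sample by chance alone in about 1 in 20 independent groups. Keratins read on the same arrays are not independent, so that rate is no yardstick for the count here. Of 26 tested keratins with at least 4 values on the first arrays, 8 had a sample far from the others by this test. In 7 of them the far sample was the high value of tumor 3: Krt19 at 5.26 (the next highest tumor at 1.81), Krt5 at 3.99 (next 1.62), Krt14 at 3.67 (next 1.27), Krt15 at 3.03 (next 0.22), Krt6b at 2.23 (next 0.52), Krt6a at 1.95 (next -0.07) and Krt9, an epidermal keratin of palm and sole, at 1.15 (next 0.15). The swapped array labelled tumor 2, which correlates best with tumor 3, gave 3.65, 2.62, 2.21, 1.74, 1.82, 1.51 and 1.13 for the same genes. In Krt1 the far sample was tumor 6, at 0.73 (next -0.066).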

How the results depend on the processing

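Over all alternatives of the 17 named keratins, 293 values kept direction and side of the threshold, 46 lost their call, 8 gained one and 24 changed sign. The count of called genes (3497) and of called keratins (7) was 1635 and 1 in the dye-adjusted fit, 939 and 2 for first arrays of tumors 1 to 4, and 296 and 0 by limma on those of tumors 5 to 8, where 9 of 26 keratins had an unadjusted p under 0.05 and fewer samples were used. It was 1653 and 2, both lower, on the swapped arrays only (chosen after seeing the data). The authors' value table called 11 keratins (10 higher), and 49% of its 4031 called genes were higher. Leaving out a tumor, by label, gave 1946 (without tumor 4) to 4501 genes, 2230 without tumor 8, and 4 (without tumor 2) to 9 keratins. The cause of these shifts was not tested.

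Signs changed for keratins near 0 or dependent on the dye. With the dye term, Krt17 was -0.079 with either pairing, Krt18 -0.052 with labelled and -0.026 with best-matching pairs, and Krt13 0.034 and Krt6a 0.064 with labelled pairs. On the swapped arrays only, Krt18 was -1.68, Krt8 -0.68, Krt17 -0.47, Krt16 -0.0097, Krt13 0.35 and Krt6a 0.32. For first arrays of tumors 1 to 4 Krt13 was 0.43 and Krt6a 0.17, while for tumors 5 to 8 Krt15 was -0.094 and Krt6b -0.0031. Krt15 was -0.47 with the scanner log ratios. Without both low-Shc1 arrays (chosen after seeing the data) Krt15 was -0.19 and Krt17 -0.16. Leaving out a tumor gave -0.0098 (without tumor 3) to 0.22 for Krt15, -0.12 (without tumor 6) to 0.14 for Krt17 and -0.52 to 0.12 (without tumor 6) for Krt13. Other probes gave 0.26 for Krt1 and 0.15 for Krt10. Averaging both arrays of a tumor by label raised Krt8 with Krt18 to r = 0.90 (adjusted exact permutation p = 0.00818), but it brings swapped arrays, with dye effects of 2.23 and 3.21, into tumors 1 to 4 only, so this r is no measure of the pair. Dim spots limit what can be said of 26 keratins, which were not well above background in both RNAs on every array. No paired analysis was possible because the labels form a single group of tumors against 1 pool.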

Other observations

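Keratins that the files carry under names outside the rule were measured too, and none was called by limma: Krt79 (0.20, adjusted p = 0.359), Krt86 (0.16, adjusted p = 0.474), Krt88 (0.14, adjusted p = 0.433) and Krt90 (0.0058, adjusted p = 0.974). Krt79, a keratin of hair canal and sebaceous duct, stood at 1.55 in tumor 3. Krt78, chosen after its values were seen, was the third tested keratin above the pool on all measured arrays, next to Krt5 and Krt14, at a mean of 0.22 ± 0.19 (SD, n = 8; limma adjusted p = 0.131), though its spot was well above background on 6 arrays for tumor RNA and 1 for the pool.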
